A study of Rattus norvegicus with 16 samples.

Results

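Per1, Per2, Per3 and Cry1 encode the transcriptional repressors of the circadian clock, and their transcripts were followed in the suprachiasmatic nuclei (SCN) of rat fetuses by RNA-Seq. The 4 genes were taken from the count table by their Ensembl identifiers, ENSRNOG00000007387 (Per1), ENSRNOG00000020254 (Per2), ENSRNOG00000018413 (Per3) and ENSRNOG00000006622 (Cry1), as 4 of its 32883 genes. All 4 were among the 13685 genes that passed a filter on low counts, which asked for 1.5 CPM (counts scaled by the total of the library) in at least 3 libraries. The table lists identifiers without symbols, and the tables used here pair none of them with a symbol, so Cry2, the positive limb of the clock, clock output genes, genes induced along with Per1, and markers of the SCN and of other cell types were not analysed here. Reads per length of transcript were not available either, and levels are compared only within a gene.

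All mothers were Wistar rats kept in constant darkness. Mothers of Group A had sham surgery, kept an intact SCN and were fed ad libitum, and their circadian time 12 (CT12) was the onset of free-running activity. Mothers of Group B had a complete electrolytic lesion of the SCN and food for 8 hours per day, and their CT12 was the onset of feeding. The groups therefore differed in the lesion, in the feeding schedule and in what defined their time scale, and these cannot be told apart. Each library held punches of the SCN of several fetuses of 1 litter, pooled, and each group had 1 litter at each of the 8 times from CT0 to CT21, 3 hours apart. No group and time had a second library, so litter, exact fetal age and circadian time cannot be told apart. The p-values rest on the scatter of libraries around each fitted model. That scatter mixes litters with any effect of time that the model leaves out. The labels give an embryonic age of 17 days, whereas the methods of the study place the collection later in gestation. In pooled tissue, fewer cells that express a gene and less RNA per cell cannot be told apart.

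In the mammalian clock the factors CLOCK and BMAL1 switch on the Per and Cry genes through E-box elements in their promoters. The PER and CRY proteins then assemble, return to the nucleus and shut off CLOCK and BMAL1, so that the transcripts of their own genes fall again. In the adult rodent SCN this loop gives strong daily rhythms of Per transcripts that are high in the subjective day, and Per1 in particular also responds acutely to neuronal activity. PER2 and the CRY proteins carry most of the repression, whereas PER3 is largely dispensable for the rhythm of the SCN.

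Sequences at annotated starts of the Per genes are shown for the clock-related motifs they hold. RefSeq promoter windows (build GRCr8, 250 bases before to 50 after the start) were matched by symbol for 3 of the 4 genes, Per1, Per2 and Per3. The count data come from an older assembly, rn6. Per2 and Per1 are printed because they hold the most and the fewest CpG pairs of the 3. Capitals mark matches, on either strand, to 4 clock-related motifs, the E-box CACGTG, its variant CACGTT, the cAMP response element TGACGTCA and the D-box TTATGTAA.
Per2, chr9:99496944-99497243, minus strand: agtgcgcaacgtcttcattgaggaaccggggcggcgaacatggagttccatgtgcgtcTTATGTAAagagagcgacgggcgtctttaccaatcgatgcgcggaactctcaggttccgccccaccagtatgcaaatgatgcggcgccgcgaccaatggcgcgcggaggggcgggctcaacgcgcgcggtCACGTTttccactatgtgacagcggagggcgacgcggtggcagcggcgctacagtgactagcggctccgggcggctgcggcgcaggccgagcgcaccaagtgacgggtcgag
Per1, chr10:54304126-54304425, plus strand: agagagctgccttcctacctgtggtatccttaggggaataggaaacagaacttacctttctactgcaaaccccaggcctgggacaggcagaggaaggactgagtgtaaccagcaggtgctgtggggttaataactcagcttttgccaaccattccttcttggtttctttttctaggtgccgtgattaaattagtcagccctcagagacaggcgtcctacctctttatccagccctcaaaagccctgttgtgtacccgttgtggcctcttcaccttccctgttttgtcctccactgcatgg

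The Per2 window held 41 CpG pairs and 64.7% GC, against medians of 7 CpG pairs and 51.7% GC over 33469 promoter windows. It carried the E-box variant CACGTT at position -62 from the start, and 4.83% of all windows held those letters. It also carried the D-box TTATGTAA at position -192, which 0.893% of all windows held. The Per1 window had 3 CpG pairs and 50.3% GC, and the Per3 window 19 CpG pairs and 60.3% GC. Neither held a match to the 4 motifs, of which the E-box CACGTG occurred in 6.42% and the cAMP response element in 1.83% of windows. Both of those windows lie inside the annotated span of their gene, so that they mark the start of a transcript other than the outermost, and sequence farther upstream was not searched. A match is a description of letters and not a measured binding site.

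The libraries of Group A held 10746066 to 12781966 counts, and those of Group B 10047500 to 18738585, of which CT9 was the deepest. Scaling factors by the TMM method lay between 0.977 and 1.03. The Group B library at CT3 stood apart within its group, with a mean correlation of 0.977 to the rest of it (the next lowest in Group B was 0.982) and of 0.981 to Group A. The Group A library at CT6 had the lowest mean correlation to the other group of all libraries (0.977), and 0.980 to its own group. It also held the highest Per3 of Group A. The main fits of Per1 that use Group B are given with and without Group B CT3. Gaussian fits and fits with a covariate are given only with that library. Intervals on single CPM values below are exact 95% Poisson intervals and cover counting error only.

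The 4 repressors were expressed in every library, and their group means differed little. For Per1 Group A averaged 34.9 ± 2.44 CPM and Group B averaged 34.4 ± 4.77 (mean ± SD over 8 libraries, as for the others). For Per2 the averages were 37.1 ± 4.47 CPM (Group A) and 38.6 ± 3.804 (Group B). Those of Per3 were 13.2 ± 3.59 CPM in Group A against 14.4 ± 2.50 in Group B. Cry1 averaged 24.2 ± 2.44 CPM in Group A against 25.9 ± 1.32 in Group B. The ranges of both groups overlapped for every one of these genes.

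**Figure D1:**
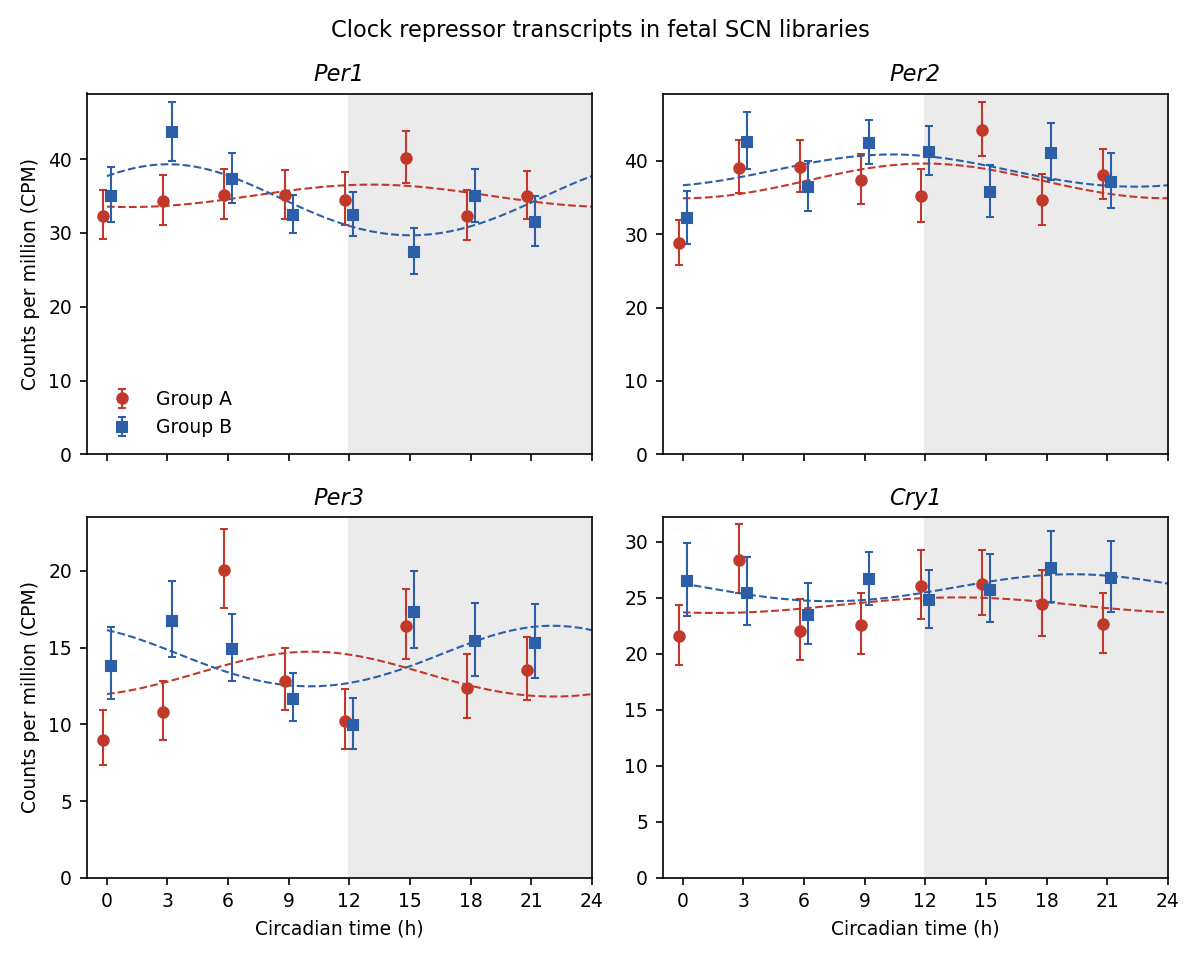
CPM (vertical axis) of Per1, Per2, Per3 and Cry1 against circadian time in hours (horizontal axis) for Group A (red circles) and Group B (blue squares, shifted slightly for sight), 1 library per point with 95% Poisson bars. Dashed lines are 24-hour cosines fitted to each group and grey marks the subjective night. Per1 in Group B runs from 43.6 CPM at CT3 to 27.4 CPM at CT15, while Group A stays between 32.3 and 35.1 CPM except at CT15 (40.2 CPM).

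Tested with edgeR's quasi-likelihood test without a time term, none of the repressors differed between the groups. The log2 fold change of Group B over Group A was -0.03 for Per1 (95% interval -0.18 to 0.12, adjusted p = 0.975), with Group B higher at 4 of 8 times. It was 0.06 for Per2 (-0.10 to 0.21, adjusted p = 0.946) and 0.12 for Per3 (-0.18 to 0.41, adjusted p = 0.941), each with Group B higher at 5 of 8 times. It was 0.09 for Cry1 (-0.04 to 0.22, adjusted p = 0.889), again with Group B higher at 5 of 8 times. Single libraries moved these values. Without Group B CT3 they were -0.09 for Per1, 0.03 for Per2 and 0.08 for Per3, and over all 16 libraries left out in turn Per2 ran from 0.013 to 0.10 (without Group A CT0 and CT15) and Per3 from 0.06 to 0.23 (without Group A CT0 and CT6). Of the 13685 genes tested, 0% passed an adjusted p of 0.05 in this comparison (lowest adjusted p = 0.706, and 0 genes by DESeq2) and 5.81% had an unadjusted p below 0.05, none of the 4 repressors among them (0 of 4). The intervals still allow differences of up to 0.22 on the log2 scale for Per1, Per2 and Cry1, and of up to 0.41 for Per3. A p above the threshold does not show equal levels.

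**Figure D2:**
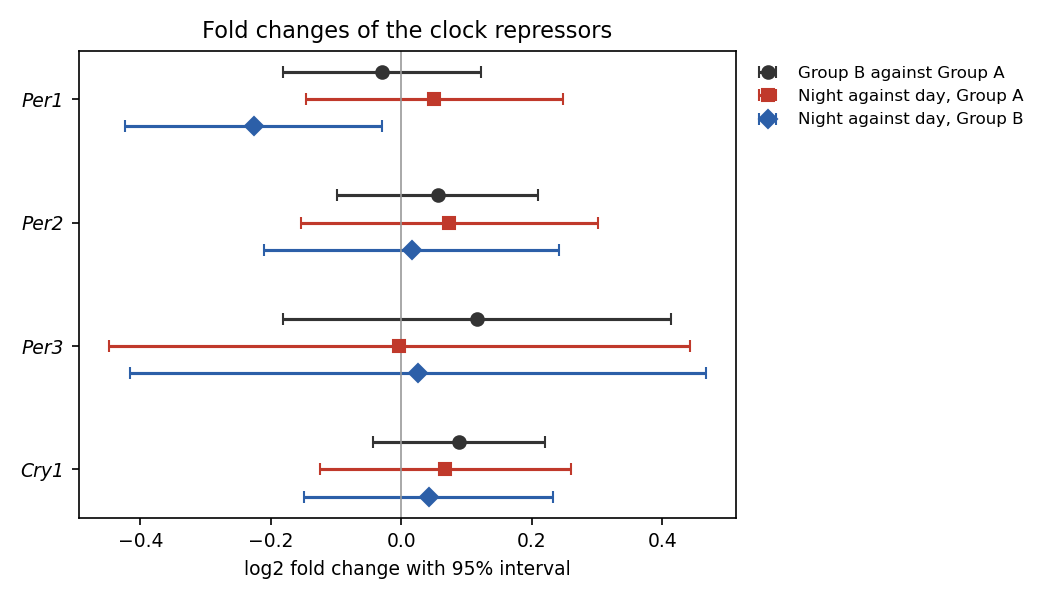
Log2 fold changes (horizontal axis) with 95% intervals of edgeR's quasi-likelihood test for each repressor (rows), for Group B over Group A (black circles), and for subjective night over subjective day in Group A (red squares) and Group B (blue diamonds). The Per1 interval for Group B night over day, -0.42 to -0.03, is the only one of the 12 that does not reach 0.

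Per1 encodes a repressor whose transcript is known for acute induction by inputs from outside the clock. In Group A its CPM from CT0 to CT21 was 32.4, 34.3, 35.1, 35.1, 34.5, 40.2, 32.3 and 35.0. It thus stayed between 32.3 and 35.1 at 7 of 8 times and stood higher only at CT15, where the Poisson interval ran from 36.7 to 43.8. In Group B the CPM over the same times was 35.0, 43.6, 37.3, 32.5, 32.5, 27.4, 35.0 and 31.5. The highest value there, at CT3 (Poisson interval 39.8 to 47.7), and the lowest, at CT15 (24.4 to 30.7), lay 12 hours apart. At CT15 the groups went opposite ways, with Group B lower than Group A by -0.55 on the log2 scale. At CT3 Group B was higher by 0.35. The scatter of Per1 over the libraries, as coefficient of variation, was 7.002% (Group A) and 13.9% (Group B), where counting alone gives 4.91% and 4.95%.

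A 24-hour cosine fitted to Per1 in Group B spanned 0.41 log2 units between trough and peak (SE 0.124), a ratio of 1.32, and peaked at CT3.03 (SE 1.16 h). It did not pass edgeR's quasi-likelihood F test after adjustment over all genes (adjusted p = 0.350), where 0.0950% of genes passed. Per1 was at rank 563 by p, among the 10.7% of genes with an unadjusted p below 0.05, and Per2, Per3 and Cry1 were not. In Group A the same fit for Per1 gave 0.13 from trough to peak (SE 0.124, edgeR adjusted p = 0.911), with 0.00731% of genes passing and 7.45% at an unadjusted p below 0.05. The difference between the cosines of the groups, tested itself, was 0.52 (SE 0.175) and did not pass either (edgeR adjusted p = 0.806). There 0% of genes passed (lowest edgeR adjusted p = 0.321), and Per1 was among the 6.11% with an unadjusted p below 0.05. It left that group without the Group B library of CT3 (0.38, edgeR adjusted p = 0.877), that of CT15 (0.44, edgeR adjusted p = 0.836) or the Group A library of CT15 (0.39, edgeR adjusted p = 0.876). For a cosine shared by both groups Per1 gave 0.15 (SE 0.102, adjusted p = 0.762; 0.05 without Group B CT3), with 0.343% of genes passing and 12.0% at an unadjusted p below 0.05, none of the 4 repressors among them.

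The subjective day (CT0 to CT9) was also set against the subjective night (CT12 to CT21). In Group B Per1 averaged 37.1 ± 4.77 CPM by day and 31.6 ± 3.15 by night (SD, n = 4 libraries each), with overlapping ranges. The night level was lower by a log2 fold change of -0.23 (95% interval -0.42 to -0.03), and did not pass after adjustment (edgeR adjusted p = 0.483). Across all genes 0.00731% passed, and Per1 was among the 8.79% with an unadjusted p below 0.05. It was no longer among them without CT3, where the fold change was -0.13 (edgeR adjusted p = 0.845), or without CT15, where it was -0.16 (edgeR adjusted p = 0.710). In Group A Per1 averaged 34.2 ± 1.30 CPM by day and 35.5 ± 3.33 by night, a log2 fold change of 0.05 (edgeR adjusted p = 0.940), where 0% of genes passed and 7.98% had an unadjusted p below 0.05. The difference of these contrasts between the groups was -0.28 (95% interval -0.55 to 0.0017, edgeR adjusted p = 0.997), in a test where 0% of genes passed and 4.16% had an unadjusted p below 0.05, Per1 not among them. Without the Group B library of CT3 this difference was -0.18 (edgeR adjusted p = 0.9999). Without that of CT9 it was -0.33 (edgeR adjusted p = 0.945), and Per1 then had an unadjusted p below 0.05. The same held without Group B CT0, Group B CT18 or Group A CT18, and not without any other library.

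Model selection, which the study used beside other rhythm tools (MetaCycle, eJTK and BioCycle), weighed 5 models by the Bayes information criterion. These were no rhythm, a rhythm confined to Group A (Arhy) or to Group B (Brhy), a rhythm shared by both (ABsync) and a different rhythm in each (ABdiff). A gene is assigned to a model when its weight passes 0.5, and the weight is not a test. Per1 was assigned to Brhy with a weight of 0.734, leaving 0.151 for no rhythm and 0.0697 for ABdiff. This put it at rank 158 of the 588 genes of Brhy, to which 4.30% of all tested genes were assigned. Per2, Per3 and Cry1 were assigned to no rhythm with weights of 0.698, 0.743 and 0.797, as were 69.2% of all genes. With Gaussian fits to CPM the same assignments were obtained, with 0.813 for Per1 in Brhy (8.20% of genes) and 0.658, 0.758 and 0.722 for Per2, Per3 and Cry1 in no rhythm (47.5% of genes).

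The assignment of Per1 rested on 2 libraries of Group B. They lie near the peak and the trough of its fitted curve, where leaving out a library would weaken a true cosine as well. How many other genes of Brhy lose their assignment in this way was not computed. Without the library at CT3, which also stood apart from its group over all genes, the Brhy weight of Per1 fell to 0.175 and no rhythm led with 0.683. Without the library at CT15 the Brhy weight was 0.287 and no rhythm led with 0.575. With any other library left out it stayed between 0.675 and 0.846. The cosine of Group B likewise measured 0.26 without CT3 (edgeR adjusted p = 0.771) and 0.32 without CT15 (edgeR adjusted p = 0.546), and in both cases Per1 no longer had an unadjusted p below 0.05.

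**Figure D3:**
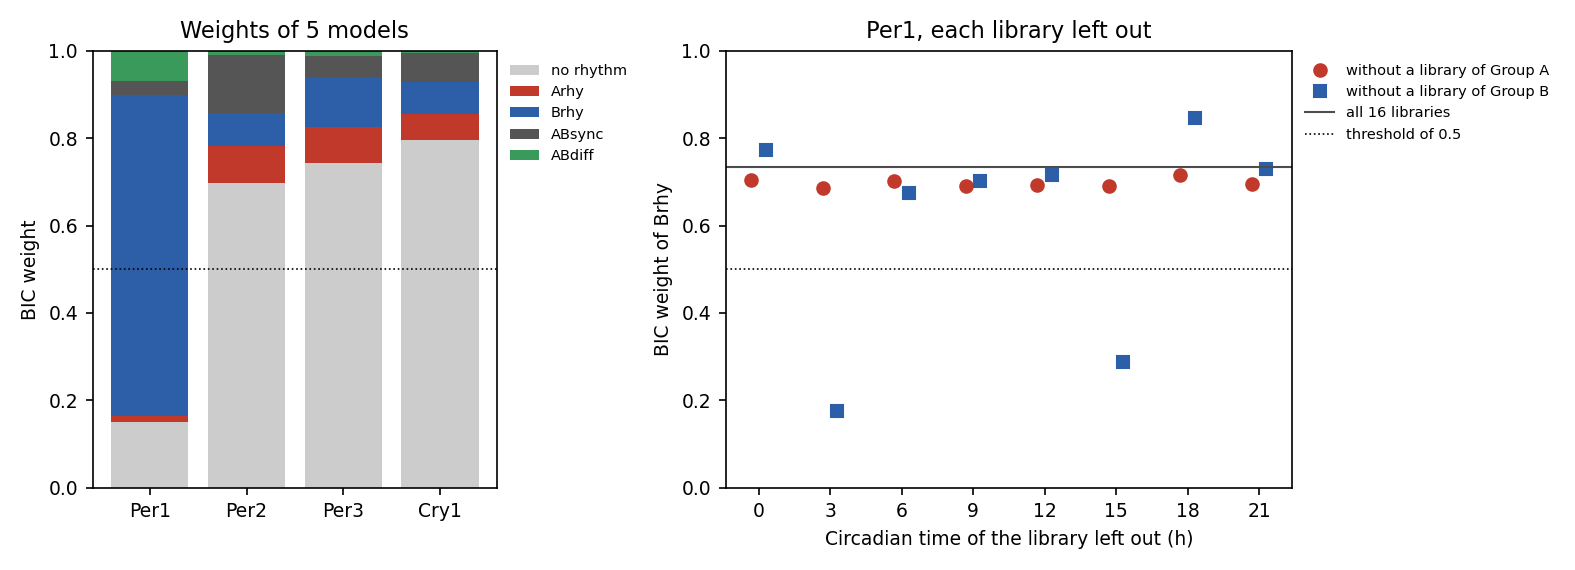
Left, weights by the Bayes information criterion (vertical axis, summing to 1) of the 5 rhythm models for each repressor. Right, the weight of a rhythm in Group B only for Per1 with each library left out in turn, by group (colour) and circadian time in hours (horizontal axis), with the weight over all 16 libraries (0.734, solid line) and the threshold of 0.5 (dotted line). It drops below the threshold without the Group B library of CT3 (0.175) or of CT15 (0.287).

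Per2 encodes the PER protein on which the feedback loop depends most. Its CPM in Group A was 28.8, 39.0, 39.2, 37.4, 35.2, 44.2, 34.6 and 38.1 from CT0 to CT21. In Group B it was 32.1, 42.6, 36.4, 42.5, 41.3, 35.8, 41.1 and 37.2. Both groups had their lowest value at CT0, whose Poisson intervals overlapped each other (25.8 to 32.0 for Group A, 28.7 to 35.9 for Group B). The highest values fell at CT15 in Group A and at CT3 in Group B, the latter close to the 42.5 CPM of CT9. At CT15 the groups again went apart, with Group B lower by -0.31 on the log2 scale. The fitted cosines measured 0.18 from trough to peak in Group A (SE 0.152, peak at CT12.0) and 0.16 in Group B (SE 0.151, peak at CT10.3), with edgeR adjusted p of 0.890 and 0.849. The Group A cosine was 0.011 without CT0 and 0.31 without CT12, and the Group B cosine 0.07 without CT0 and 0.27 without CT3. The shared cosine measured 0.17 (SE 0.103, peak at CT11.2, adjusted p = 0.711), and the difference between the cosines 0.08 (SE 0.215, adjusted p = 0.990). Night and day differed by 0.07 in Group A and 0.02 in Group B on the log2 scale (edgeR adjusted p = 0.921 and 0.979). Scatter exceeded counting error in both groups, 12.1% against 4.76% in Group A and 9.85% against 4.63% in Group B.

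Per3, the period gene least needed for SCN rhythms, had the lowest counts of the 4 (105 to 241 per library) and the widest scatter. In Group A its CPM was 9.01, 10.8, 20.05, 12.9, 10.2, 16.4, 12.4 and 13.5 from CT0 to CT21, a ratio of 2.22 between the highest and lowest library. In Group B it was 13.8, 16.7, 14.9, 11.7, 9.98, 17.3, 15.4 and 15.3. In both groups the values went up and down from one time to the next without a single crest. Group B was higher at CT0 and CT3, by 0.62 and 0.64 on the log2 scale, and Group A was higher at CT6, where Group B lay at -0.43. The fitted cosines peaked at different times, with 0.32 from trough to peak in Group A (SE 0.292, peak at CT10.1, SE 3.49 h) and 0.40 in Group B (SE 0.287, peak at CT22.1, SE 2.79 h). Neither passed (edgeR adjusted p = 0.903 and 0.794), and the test of their difference did not pass either (0.72, SE 0.409, edgeR adjusted p = 0.862). Single libraries moved these fits, and without Group A CT0 the Group A cosine was 0.15 with its peak at CT6.34, without CT12 it was 0.64, and without CT6 its peak was at CT15.5. The Group B cosine was 0.21 without its library of CT12. With the first principal component of all genes (described further on) as a covariate, the difference between the cosines was 0.09 (edgeR adjusted p = 0.9999). The cosine shared by both groups was 0.04 for Per3 (SE 0.210, adjusted p = 0.994). Night over day for Per3 gave log2 fold changes of -0.0032 for Group A (edgeR adjusted p = 0.997) and 0.03 for Group B (0.985). The rise fitted to Per3 in Group B was about as high as that of Per1, but its SE was 0.287 against 0.124. The coefficient of variation was 27.3% (Group A) and 17.3% (Group B), where counting alone gives 7.98% and 7.72%. The biological coefficient of variation estimated by edgeR without a time term was 19.2% for Per3, against 9.91% for Per1, 10.2% for Per2, 8.25% for Cry1 and a median of 10.7% over all genes tested.

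Cry1 encodes the cryptochrome that closes the loop by blocking CLOCK and BMAL1, and it had the least scatter of the 4 in Group B. Its CPM in Group A was 21.5, 28.4, 22.04, 22.6, 26.1, 26.2, 24.4 and 22.6 from CT0 to CT21, with the highest value at CT3. In Group B it was 26.5, 25.4, 23.4, 26.6, 24.8, 25.7, 27.6 and 26.8, a ratio of 1.18 between the highest and lowest library. This scatter, 5.10%, was no larger than the 5.69% that counting alone gives, so that no variation between the litters of Group B was detectable at this depth. In Group A the scatter was 10.1% against 5.91% from counting. The fitted cosines measured 0.08 in Group A (SE 0.136) and 0.13 in Group B (SE 0.134), with edgeR adjusted p of 0.967 and 0.871. Without the library of CT3, the highest of the group, the Group A cosine was 0.31 (edgeR adjusted p = 0.794), and without CT0 it was 0.04. The Group B cosine ran from 0.07 without CT6 to 0.23 without CT9. The shared cosine of Cry1 was 0.08 (SE 0.0921, adjusted p = 0.899) and the difference between the cosines 0.15 (SE 0.190, adjusted p = 0.956). Night over day gave 0.07 in Group A and 0.04 in Group B on the log2 scale (edgeR adjusted p = 0.915 and 0.936). The difference of night against day between the groups was -0.06 for Per2, 0.03 for Per3 and -0.03 for Cry1, each with an edgeR adjusted p of 0.997.

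Whether the repressors moved together from library to library was examined over the 16 libraries on log2 CPM, in 6 pairs. Per1 and Per2 had a Pearson r of 0.40 (permutation p = 0.125, adjusted over the 6 pairs 0.348) and a Spearman rho of 0.27 (permutation p = 0.310, adjusted p = 0.466). Without the 2 libraries farthest from the median of Per1, r was 0.26. Group A alone gave r = 0.79 and Group B alone r = 0.30 (n = 8 each). Per2 and Per3 had r = 0.36 over all libraries, with 0.72 in Group A and -0.26 in Group B. The difference between the groups was not tested. None of the 6 pairs passed (lowest adjusted permutation p = 0.348), and Per1 with Cry1 and Per3 with Cry1 lay at -0.05 and -0.02. As a description of the closest patterns among 9973 genes with a mean count of at least 100, Per1 was most alike to ENSRNOG00000021919 (r = 0.87), Per2 to ENSRNOG00000013423 (0.81), Per3 to ENSRNOG00000018044 (0.87) and Cry1 to ENSRNOG00000025155 (0.87). Per2 came only at rank 1084 in the order for Per1. These libraries share depth and litter effects across genes.

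The first principal component of log2 CPM over all tested genes, which held 23.8% of the variance, moved with Per1. Its score was highest in Group A at CT6 (29.1) and in Group B at CT3 (28.9), and lowest in Group B at CT9 (-25.7). Per1 correlated with this score at r = 0.65 over 16 libraries (permutation p = 0.00544, adjusted over 8 pairs of a repressor and a library measure 0.0435) and at a Spearman rho of 0.70 (permutation p = 0.00386, adjusted 0.0309). Without the 2 libraries farthest from the median of Per1, r was 0.69. It was 0.66 within Group A and 0.69 within Group B (n = 8 each). The score was computed from these same libraries with the repressors among the genes. A component with 23.8% of the variance is shared by many genes by construction. The share of all genes with as high an r was not computed, so the correlation does not set Per1 apart from other genes. Per3 had r = 0.55 (adjusted permutation p = 0.118), which became 0.64 (adjusted permutation p = 0.0287) once the mean of each group was removed. The Spearman rho of Per3 was 0.46 (adjusted permutation p = 0.225). Without the 2 libraries farthest from the median of Per3, r was 0.39. Per2 and Cry1 had r = 0.26 and -0.02 (adjusted permutation p = 0.542 and 0.941). None of the 4 correlated with the log2 total count past the threshold (r from -0.26 to 0.46, lowest adjusted permutation p = 0.202). With the component as a covariate, a setting chosen after the data had been seen, the Group B cosine of Per1 measured 0.30 (edgeR adjusted p = 0.587) and the difference between the cosines 0.45 (edgeR adjusted p = 0.974). Estimates of other repressors moved upward. Over the alternative settings other than leaving out a library, the Group B cosine of Per2 ran from 0.16 to 0.33, against 0.16 in the main fit. The difference between its cosines ran from 0.08 to 0.27, against 0.08 in the main fit. What the component reflects in these libraries was not tested.

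**Figure D4:**
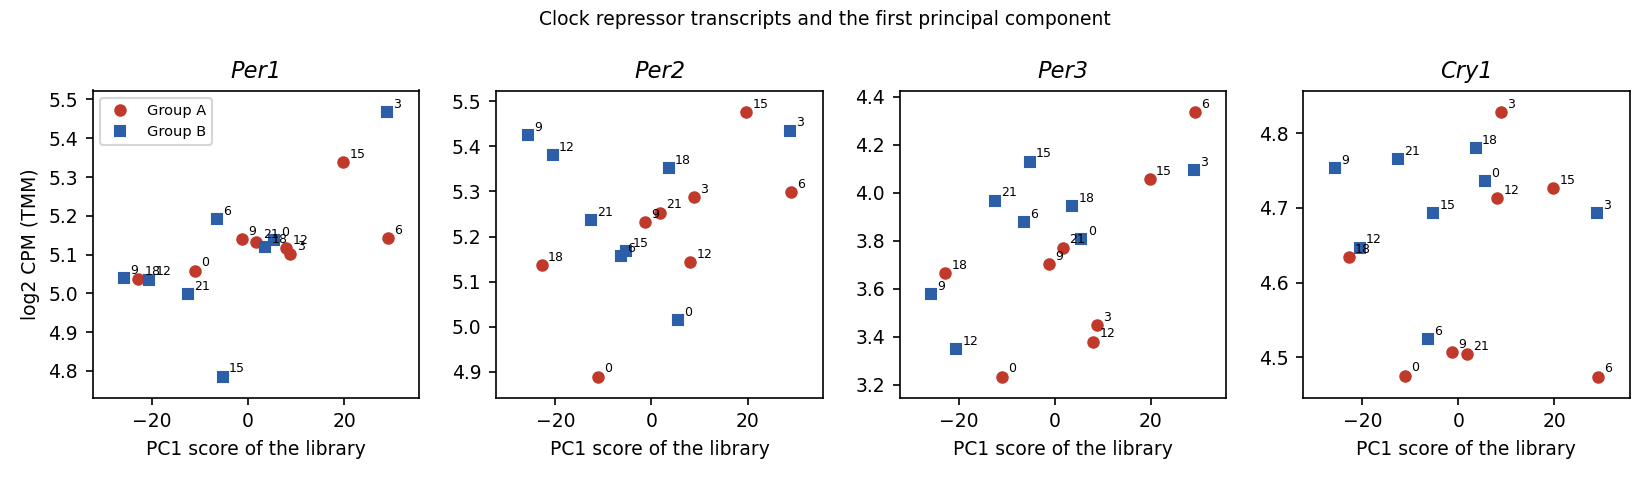
Log2 CPM after TMM scaling (vertical axes) of each repressor against the score of the library on the first principal component over all tested genes (horizontal axes), for Group A (red circles) and Group B (blue squares), with circadian time in hours beside each point. Per1 increases with the score in both groups (r = 0.66 and 0.69), with Group B CT3 at the upper right.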

How the data were processed

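RNA-Seq was measured in 16 libraries, 8 per group. The study prepared stranded libraries after rRNA depletion and polyA enrichment, and HISAT2 2.1.0, Salmon and StringTie with rn6 are named in the submitters' processing notes. The values the authors deposited are raw counts of reads per Ensembl gene, not normalized and not filtered. Each of the 16 columns was assigned from the group and time in its name. The files do not state how reads shared between the related Per genes or with antisense genes were treated. Depth was 10047500 to 18738585 counts per library, and with 1 library per group and time the scatter between litters limits precision.

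All further values were computed here with R 4.3.3, edgeR 4.0.16, DESeq2 1.42.0 and SciPy 1.17.1. CPM scales each count by the total of its library. Tests were edgeR quasi-likelihood tests (TMM, Benjamini-Hochberg over 13685 genes) of group, of 24-hour cosine terms and of night against day. Model weights used negative binomial fits at DESeq2 size factors and dispersions, after dryR, which is not installed here. Correlations used 100000 permutations, two-sided, and log2 CPM with a prior count of 2. The procedures were tested on simulated counts. The replicate numbers name circadian times and share no litter between groups.

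The 4 genes, the motifs and the tests were chosen with earlier results of these data known. Named genes were the 4 repressors and the gene most alike to each. Lists of clock partners, induced genes and cell type markers were planned and not analysed here, because symbols were lacking. Alternatives were other size factors, no filter, DESeq2 tests, circadian time as a block, cosines as covariates, other dispersions, Gaussian fits, centring of groups and each library left out. The first principal component as covariate was added after seeing the data.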

Additional observations from a re-analysis of the deposited data

Results flagged for a closer look

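Among 16 sets of 8 libraries (the 4 repressors and 4 library measures in each group), 2 held a library whose gap to its nearest neighbour exceeded 0.526 of the range of its group, where chance gives about 0.8. Per1 in Group A at CT15 had 40.2 CPM, against 35.1 CPM in the next highest library, a gap of 0.641 of the range. The same library also held the highest Per2 of Group A (44.2 CPM) and the second highest Per3 and Cry1 (16.4 and 26.2 CPM). The Group B library at CT3 had a mean correlation of 0.977 to its own group, a gap of 0.702 of the range, and it held the highest Per1 (43.6 CPM) and Per2 (42.6 CPM) of that group.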

How the results depend on the processing

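The adjusted p of the Group B cosine of Per1 ran from 0.299 to 0.587 over the other settings and from 0.279 to 0.771 with a library left out. No repressor passed an adjusted p of 0.05 in any comparison under any alternative run, and the assignments of Per2, Per3 and Cry1 to no rhythm held under each. With circadian time as a block, Group B over Group A gave log2 fold changes of -0.04 for Per1, 0.06 for Per2, 0.14 for Per3 and 0.09 for Cry1, with 0 genes called. This pairing shares only the time and no litter, and it changed no call. The number of genes called depended on the tool and filter. DESeq2 in place of edgeR called 298 genes for the common cosine, 28 for Group A, 133 for Group B and 4 for their difference, and 20, 73 and 1 for night against day in Group A, in Group B and for the difference. Without the filter these were 3 and 21 for the cosines of Group A and Group B, and 22, 19 and 2 for night against day. The principal component as covariate gave 138 for the common cosine, 2 for Group A and 3 for night against day in Group B. The causes were not tested.

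Some estimates near 0 changed sign, none of them called. Without the filter Per3 night over day in Group A was 0.0029. With the component as covariate it was 0.087, Per1 in Group B over Group A was 0.018, and the common cosine of Per3 was 0.21 with its peak moved to CT16.3. Per1 with Cry1 had r = 0.0048 after centring the groups.

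With each library left out in turn, the Brhy weight of Per1 ran from 0.175 to 0.846. Group B over Group A ran from -0.088 to 0.010 for Per1, 0.013 to 0.10 for Per2 and 0.06 to 0.23 for Per3, and was 0.23 for Per3 with the principal component as covariate. The common cosine of Per3 ran from 0.019 to 0.27 and the difference of cosines of Per2 from 0.036 to 0.18. Night over day in Group A ran from -0.016 to 0.090 for Per1, -0.013 to 0.11 for Per2 and -0.14 to 0.27 for Per3. In Group B it ran from -0.28 to -0.13 for Per1, -0.058 to 0.075 for Per2, -0.071 to 0.17 for Per3 and -0.0030 to 0.070 for Cry1. The difference of cosines of Per1 ran from 0.38 to 0.62. The difference of night against day ran from -0.33 to -0.18 for Per1, -0.13 to 0.034 for Per2, -0.24 to 0.18 for Per3 and -0.12 to 0.012 for Cry1. Genes called ran from 1 to 86 for the common cosine, 0 to 3 for Group A, 1 to 24 for Group B and 0 to 2 for their difference, and from 0 to 5 and 0 to 2 for night against day in Group A and Group B. For Cry1 in Group B the scatter of 5.10% did not exceed the 5.69% from counting, and in every other case the scatter of a repressor exceeded counting error.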
